A study of Oncorhynchus mykiss with 8 samples.

Results

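The size effect in the white muscle of rainbow trout, that is, the log2 ratio of a transcript between large and small fish, was compared between a Dec. and a Sept. lot. The difference described here is the Dec. size effect minus the Sept. size effect. It was computed for each array probe from all 8 arrays of the series, 4 of each lot, by averaging the arrays of each dye swap and subtracting the mean of the Sept. pool pairs from the mean of the Dec. pool pairs. A value on every array was required, which 38488 of 43603 probes had.

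All fish were reproductively immature rainbow trout (Oncorhynchus mykiss) of the Lyndon strain, reared at 1 station and fed ad libitum per the labels. The study's methods instead describe a daily ration set by body weight and water temperature, with a fast before weighing. Per the study's methods, the Sept. lot came from 5 females crossed with 1 male and the Dec. lot from 5 other females crossed with a different male, and each lot was sampled at a similar age, in December and February respectively. The study also reports that the Dec. fish were heavier. By its pool weights, the small pools were further below the large pools in proportion in Sept. than in Dec. The size effects of the lots thus do not compare the same weight contrast. Lot, sire, rearing group, month of sampling, body weight and weight contrast therefore cannot be told apart. Each pool held mRNA of 5 fish of 1 size class, and a large pool and a small pool were labelled with Alexa Fluor 555 and 647 and hybridised together, then again with the dyes exchanged, so that each lot had n = 2 pool pairs. Per the methods, the muscle was taken near the dorsal fin, away from the red muscle at the lateral line, with the skin removed. Only ratios of the channels were used, so a level of a tissue marker cannot be given and the tissue label could not be checked against one.

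A positive size effect is higher in large fish and a positive difference is higher in Dec. than in Sept. on that scale. The direction large over small is a likely one, since it was taken from which genes the study listed for large or small fish. Reading every array the other way would turn every value. The study reports that qPCR of muscle genes in Sept. fish bore out its arrays. Across probes, the arrays of a swap correlated at -0.19 and -0.12 in the Sept. lot and at -0.28 in Dec. pool pair 1, against 0.50 in Dec. pool pair 2. All array values are given in the order pool pair 1 with large fish in Alexa 555, pool pair 1 with large fish in Alexa 647, then the same for pool pair 2. The median log2 ratio of each array lay between -0.03 and 0.02. Of the 118 named genes, limma gave 73 a p of at most 0.05 before adjustment, and 48 of them kept their sign under each of the 19 processing alternatives tried. Without 1 pool pair, 22 of the 73 moved by over 1.5 times, none of them through 0, as did all of the other 45, of which 21 changed sign. A low p in the full fit by itself favours a kept sign, so this is no separate evidence.

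White (fast) muscle makes up most of the trunk of a trout and works by glycolysis in bursts, while red (slow) muscle lies in a thin band along the lateral line, is rich in mitochondria and myoglobin, and serves steady swimming. Growth of a muscle depends on the balance of protein synthesis on ribosomes and protein breakdown, which runs mainly through the ubiquitin-proteasome system and the lysosomal cathepsins. A piece of muscle also holds blood, connective tissue, fat cells, nerve and immune cells, and transcripts of these cells move with their share of the sample.

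Of 38488 probes, limma called 0 at an adjusted p under 0.05, which is 0%, and the lowest adjusted p was 0.483. An unadjusted p up to 0.05 was found for 3483 probes, all of them at least 1.2-fold and so past the threshold the study used for large against small fish within a lot. Of these, 1877 had a higher size effect in Dec. (4.88% of all probes) and 1606 a lower one (4.17%). Hence no difference named below passed the adjusted test, and the values describe these pools. The median difference over all probes was -0.01, and 95% of probes lay between -0.60 and 0.73. A difference of at least 2-fold was measured for 319 probes in the positive and 136 in the negative direction. The 4 Dec. arrays lay above the 4 Sept. arrays without overlap for 560 probes (1.45%) and below them for 479 (1.24%).

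Averaged over each dye swap, the size effects were wider in the Dec. lot. On single arrays the lots overlapped. The median absolute deviation was 0.25, 0.18, 0.18 and 0.24 in Sept. and 0.36, 0.19, 0.23 and 0.23 in Dec. The SD was 0.40, 0.31, 0.29 and 0.42 in Sept. and 0.60, 0.37, 0.51 and 0.49 in Dec. The median absolute log2 ratio was 0.0942 and 0.0993 in the Sept. pool pairs and 0.131 and 0.125 in the Dec. pool pairs, a ratio of 1.33 between the lots. With 2 pool pairs against 2 the exact permutation test, two-sided, gave p = 0.333, the smallest it can give. Between pool pairs, Pearson's r over the 38488 probes was 0.31 within the Dec. lot, 0.08 within the Sept. lot and 0.03 to 0.13 across lots, and probes are not independent replicates. Among the 3483 probes past the study's threshold, 84.9% had the Dec. effect further from 0 than the Sept. effect (61.9% of all probes) and 73.0% had opposite signs in the lots (47.4% of all probes). These probes were selected on the difference between the lots, which by itself favours both patterns, so the shares are no separate evidence.

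**Figure D1:**
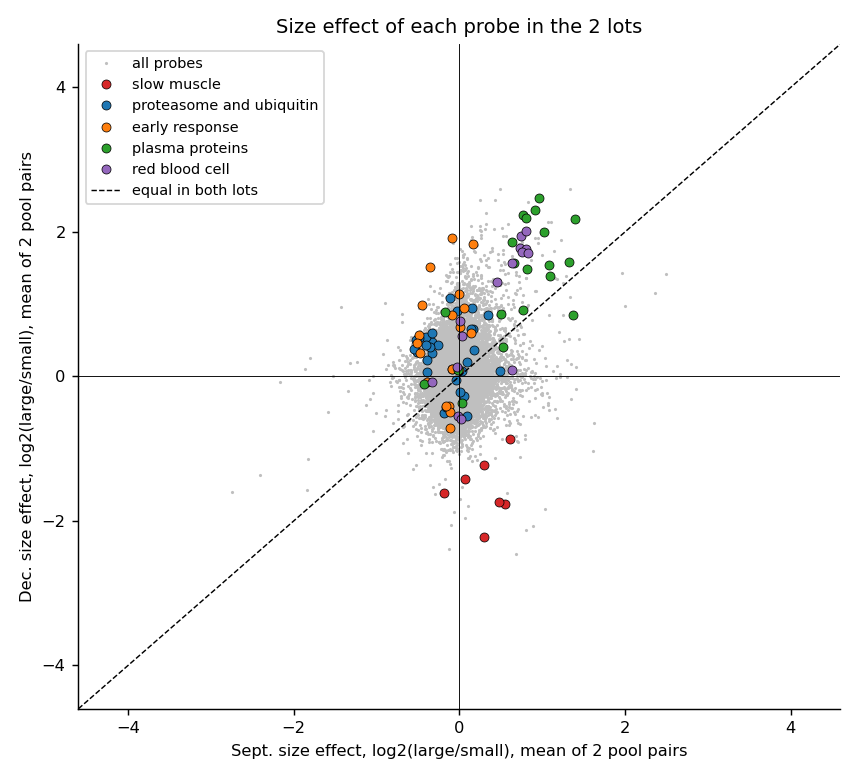
Each point is a probe, with the mean log2(large/small) of the 2 Sept. pool pairs on the x axis and of the 2 Dec. pool pairs on the y axis. Coloured points are members of 5 gene lists and the dashed line marks equal effects in both lots. All 7 slow muscle probes lie below the line, while 24 of 31 proteasome and ubiquitin probes lie above it.

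Names were at hand for 1313 of the 38488 probes, and 891 of these come from lists of muscle genes that the study selected on these same arrays for one lot or the other. A probe listed for Dec. tends to differ between the lots by that selection alone: probes listed for large Dec. fish had a median difference of 0.82 and those listed for small Dec. fish -0.50. The counts of the gene groups below are therefore a description and not independent evidence. Of all named probes, 19.6% passed the study's threshold upward and 18.1% downward. Of those on a muscle list, 26.2% passed upward and 25.9% downward, but these shares mix lists of opposite direction. Of all probes listed for large Dec. fish, 73.8% passed upward, and of those listed for small Sept. fish 45.5%. Of all probes listed for small Dec. fish, 50.6% passed downward, and of those listed for large Sept. fish 8.97%. Without overlap, 90 of the 294 probes listed for large Dec. fish lay upward, and 72 of the 773 listed for small Dec. fish downward. The group counts are to be read against the shares of the lists that their members come from. The 422 named probes on no muscle list had a median difference of 0.02, with 24 past the study's threshold upward (5.69%) and 7 downward (1.66%).

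Transcripts of slow muscle proteins had a downward difference: the median ratio of large to small fish was below 0 on the Dec. arrays and above 0 on most Sept. arrays. A ratio does not tell a lower level in large fish from a higher one in small fish. All 7 probes had a negative difference and passed the study's threshold, with a median of -1.52 (range -2.53 to -1.43), against -0.01 over all probes. On the Sept. arrays the median of the list was 0.61, 0.42, 0.38 and -0.25, and on the Dec. arrays it was -0.48, -2.30, -2.94 and -0.91, so every Dec. array lay below every Sept. array. In a bulk sample, a different share of slow fibres and a different amount of these transcripts per fibre cannot be told apart. The study had listed all 7 for small Dec. fish. As processed, this median was the furthest from 0 of the 22 gene lists, but with the Alexa 647 arrays turned it was -0.23, closer to 0 than those of the skin (0.75), heat shock (0.31) and calcium-handling (0.30) lists. Without Dec. pool pair 1 it was -1.84, closer to 0 than that of the red blood cell list (2.45).

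Myosin light chain 3-like (A_05_P248844), a light chain of the myosin motor, was 0.61, 0.42, 0.43 and -0.25 on the Sept. arrays and -1.08, -2.303, -3.704 and -1.83 on the Dec. arrays. 3 of 4 Sept. values were moderately positive and the Dec. values were all strongly negative, without overlap. The difference was -2.53 ± 0.41 (SE, n = 2 pool pairs per lot, 95% interval -3.63 to -1.43, limma adjusted p = 0.483).

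Troponin T, cardiac muscle (A_05_P255254), which anchors the troponin complex on tropomyosin, was 1.29, 0.20, 0.77 and -0.04 in Sept. and -0.09, -2.74, -2.94 and -1.27 in Dec., a difference of -2.32 ± 0.29 (limma adjusted p = 0.483). The highest Dec. array was close to 0 and lay just below the lowest Sept. array. Troponin slow skeletal muscle (A_05_P277927) was 0.14, 1.599, -0.44 and 0.60 in Sept. and -0.48, -2.47, -3.08 and -0.91 in Dec. and differed by -2.21 ± 0.34 (limma adjusted p = 0.483). Here the nearest arrays of the lots were -0.44 and -0.48, so the groups did not overlap but nearly touched, and the sign of this probe turned (0.58) if the arrays with large fish in Alexa 647 were read the other way. The remaining members were troponin slow skeletal muscle-like (-1.52), myosin binding protein cardiac (-1.49), the oxygen store Myoglobin (-1.47) and tropomyosin 3 (-1.43), and each had overlapping arrays.

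The other myofibril and Z disc transcripts did not follow 1 direction. Of 28 probes, 9 were above and 19 below 0, with a median of -0.42 (-0.18 without Sept. pool pair 1), and 7 passed the study's threshold upward and 6 downward. Myosin heavy chain, the motor itself, had probes at both ends. Probe A_05_P393052 was -2.65, -2.16, -0.33 and -0.55 on the Sept. arrays and 2.56, -0.06, 1.26 and 0.05 on the Dec. arrays. Every Sept. value was negative, while 2 Dec. arrays were high and 2 lay near 0, and the groups did not overlap. Its difference of 2.38 ± 0.70 (limma adjusted p = 0.5) fell to 1.399 without Sept. pool pair 1. This difference was the highest among named probes with non-overlapping arrays and an unadjusted limma p up to 0.05. Probe A_05_P277167 of the same name differed by -1.95 in the opposite direction, with -0.11 in Sept. and -2.06 in Dec. The files do not say which of the many myosin genes of a trout either probe matches.

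The alpha actin probes, for the thin filament, differed by 1.15 on A_05_P449267 and by 0.70 on A_05_P423987, the latter without passing the study's threshold. Actinin alpha 2 (A_05_P352192), which ties actin to the Z disc, was 0.85, -0.46, 0.51 and -0.37 in Sept. and -0.82, -1.47, -1.704 and -0.44 in Dec., a difference of -1.24 ± 0.12. Its Dec. arrays were low except for 1, which overlapped the Sept. range. Tropomyosin 2 on probe A_05_P488277 (-1.89) and tropomyosin partial (-1.21) also had lower Dec. effects and were listed for small Dec. fish. All 3 probes of troponin I, fast skeletal muscle, lay below 0, from -1.10 to -0.41, and 1 of them passed the study's threshold (A_05_P432892, -0.54). Pdz and lim domain protein 3, a Z disc protein, differed by 0.71 without overlap, and myozenin-2, a calcineurin-binding Z disc protein that the study had not listed, by 0.61 with overlap.

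Among calcium-handling transcripts no common difference was seen (6 probes, 2 above and 4 below 0, median -0.22, and -0.06 without Dec. pool pair 1). Parvalbumin 2 (A_05_P423182), a calcium buffer that speeds the relaxation of fast fibres, was -4.54, -2.59, -2.21 and -1.65 on the Sept. arrays and -0.43, -3.55, -2.26 and -0.16 on the Dec. arrays. All 8 values were negative and the ranges of the lots overlapped widely. The lots differed by 1.15 ± 0.62 with a 95% interval of -0.53 to 2.83. Parvalbumin beta-2 (A_05_P429727) was -3.08, -1.94, -1.59 and -0.77 in Sept. and -0.83, -3.32, -1.94 and -0.21 in Dec., again negative throughout, and differed by 0.27 ± 0.57 (95% interval -1.28 to 1.82). Neither interval excluded 0 or a difference of 2-fold. The calcium store protein sarcalumenin precursor (-0.41) passed the study's threshold downward, and calmodulin, a calcium sensor, was at -0.27 without passing.

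Glycolytic transcripts went both ways, with 7 of 18 probes above 0, a median of -0.06 and 2 past the study's threshold, both upward. One of these was glyceraldehyde-3-phosphate dehydrogenase (GAPDH) on probe A_05_P463477, which was -0.54, -0.60, -0.45 and -0.28 in Sept. and 1.56, -0.25, -0.03 and -0.03 in Dec. Its 4 Dec. arrays lay above the 4 Sept. arrays, although 3 of them were slightly below 0 and the difference of 0.78 ± 0.26 leaned on the remaining one. The other GAPDH probe (A_05_P419277) was -2.03, -1.18, -2.53 and -1.56 in Sept. and -0.72, -2.21, -1.37 and -0.25 in Dec., a difference of 0.69 ± 0.29 with overlapping arrays. Enolase (A_05_P407587), a later enzyme of the same pathway, was the second to pass (0.73). The 3 probes of enolase 3-2 lay between -0.98 and 0.19 and did not pass, and the lowest (A_05_P473402) was -0.12 without Dec. pool pair 2. Pyruvate kinase (A_05_P390772), which forms pyruvate, had the lowest value (-1.43), from 1.003 in Sept. to -0.42 in Dec., and lactate dehydrogenase b (A_05_P444697) the highest (1.29). Neither passed, and without Dec. pool pair 2, on which plasma and hemoglobin transcripts were high, they were -0.73 and 0.23.

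Of 27 probes for mitochondrial energy metabolism, 17 were above 0 and 10 below (median 0.24), with 7 past the study's threshold upward and 4 downward. Without Sept. pool pair 1 the median was 0.11. The mean was negative in Sept. and positive in Dec. for 8 probes and the reverse for 4, so that 44.4% had opposite signs, near the 47.4% of all probes. Atp synthase subunit mitochondrial precursor (A_05_P409472), a part of the enzyme that makes ATP, was -0.45, -0.36, -0.36 and -0.51 on the Sept. arrays and 1.19, 0.04, 0.44 and 0.43 on the Dec. arrays. It was negative on every Sept. and positive on every Dec. array, a pattern that 0.255% of all probes showed. The difference was 0.94 ± 0.12 (95% interval 0.61 to 1.27, limma adjusted p = 0.483).

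Malate mitochondrial precursor (-0.45 in Sept., 0.50 in Dec.), voltage-dependent anion-selective channel protein 2 on A_05_P411937 (-0.64 and 0.28), a pore of the outer membrane, cytochrome c on A_05_P419817 (-0.54 and 0.17), the electron carrier, and Prohibitin (-0.37 and 0.21), an inner membrane scaffold, changed sign in the same way, and all 4 passed the study's threshold. NADH dehydrogenase on A_05_P253124, of complex I, was near 0 in Sept. and 0.98 in Dec. (0.998 ± 0.18). The opposite was seen for ADP/ATP translocase 2 (A_05_P276614), which exchanges ADP for ATP across the inner membrane. It was 1.16, 1.796, 2.17 and 2.86 in Sept. and 1.51, 0.66, 1.31 and 0.43 in Dec., above 0 on all arrays and different by -1.02 ± 0.37 (limma adjusted p = 0.549), with overlap. Without Sept. pool pair 2 this difference was -0.50, and with the Alexa 647 arrays turned it was 0.76. A second probe of this name (A_05_P421709) was negative in both lots and differed by -0.34. Mitochondrial ribosome probes had a median of 0.00 (5 above and 5 below 0), the highest being a protein of the large mitochondrial subunit on A_05_P337442 (0.90).

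Ribosomal proteins of the cytosol, the frame of the protein-making machine, were split. Of 18 probes 11 lay below and 7 above 0 (median -0.29), and 7 passed the study's threshold downward against 6 upward. The probe for protein s2 of the small subunit (A_05_P366007) was -1.25, -0.08, -0.06 and 0.55 in Sept. and 1.38, 0.77, 1.54 and 0.83 in Dec. The Sept. arrays scattered around 0 and the Dec. arrays were all above them, with a difference of 1.34 ± 0.33. Ribosomal protein s15a (-1.12) and ribosomal protein l13 (-1.002) had the lowest values. The 2 probes for protein S27 of the small subunit disagreed, at -0.91 on A_05_P390192 and 0.64 on A_05_P475507.

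Translation factors had a median of -0.10, with 8 probes above and 8 below 0, and the 5 that passed the study's threshold were all upward. All 3 probes of eukaryotic translation elongation factor 1 alpha 1, which brings aminoacyl-tRNA to the ribosome, were among them at 1.19, 1.29 and 1.596. On A_05_P362822 the arrays were -0.20, -0.04, -0.13 and 0.27 in Sept. and 1.42, 0.25, 1.99 and 2.63 in Dec., so that 3 Dec. arrays were high and 1 lay within the Sept. range. Eukaryotic translation initiation factor 3 subunit e (A_05_P439237), of the complex that loads mRNA onto the small subunit, was -0.48, -0.39, -0.48 and -0.80 in Sept. and 0.83, -0.27, 0.43 and 1.16 in Dec. and differed by 1.07 ± 0.22 without overlap. At the other end, eukaryotic translation elongation factor 1 epsilon 1 (-1.57) and eukaryotic translation initiation factor 5a-1 (-1.54) did not pass. The former was -0.78 without Dec. pool pair 2. The latter was 3.99, 0.51, 0.17 and -0.34 on the Sept. arrays and -0.38 without Sept. pool pair 1, which holds the high array.

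Proteasome and ubiquitin transcripts mostly had positive differences. Of 31 probes 24 were above 0 (median 0.62), and 15 passed the study's threshold upward against 1 downward. The median was 0.37 without Dec. pool pair 2, 0.30 on the arrays with large fish in Alexa 647 alone and 0.17 with those arrays turned. In 17 probes the Sept. mean was below 0 and the Dec. mean above 0, and in 3 the reverse, which makes 64.5% with opposite signs against 47.4% of all probes. The list's median on the Sept. arrays was -0.27, -0.13, -0.07 and -0.19, and on the Dec. arrays 0.64, -0.10, 0.39 and 0.43, so that only the Dec. pool pair 1 array with large fish in Alexa 647 overlapped the Sept. lot. The study had listed 12 of these probes for Sept. and 9 for Dec., and the 10 on neither list had a median difference of 0.07, with 6 of 10 above 0 and 2 past the study's threshold.

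Members of both the 20S core, the barrel that cuts proteins, and the 19S cap passed the study's threshold upward. In the core, proteasome subunit beta type-4 (A_05_P410972) was -0.70, -0.02, -0.72 and -0.57 in Sept. and 1.099, -0.30, 0.48 and 0.84 in Dec. Its Sept. values were all negative and 3 of 4 Dec. values positive, and the difference was 1.03 ± 0.17 (limma adjusted p = 0.483). Proteasome subunit alpha type-6 (A_05_P436627) was -0.95, -0.01, -0.41 and -0.71 in Sept. and 0.88, -0.17, 0.14 and 1.14 in Dec. and differed by 1.02 ± 0.15. Again 1 Dec. array fell among the Sept. arrays. Alpha type-5 (0.85) and proteasome maturation protein (0.92), an assembly factor, also passed the study's threshold, whereas alpha type-2 (0.45) and alpha type-3 (0.19) did not.

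In the 19S cap, which unfolds substrates, 26s protease regulatory subunit 8 differed by 0.80, and the probes named proteasome ( macropain) 26s 6 by 0.76 and 1.03, the latter on no muscle list. Proteasome activator complex subunit 3, an alternative cap also on no muscle list, differed by 0.69. Ubiquitin-conjugating enzyme e2 d2 (A_05_P273004), which passes ubiquitin to many ligases, was -0.81, 0.55, -0.21 and 0.04 in Sept. and 1.16, 0.76, 1.29 and 1.12 in Dec. All 4 Dec. arrays lay above the Sept. arrays, and the difference of 1.19 ± 0.13 (95% interval 0.83 to 1.55) was the highest of the list. A downward difference passed only for e3 ubiquitin-protein ligase rnf14 (-0.64), which did not overlap either. The 4 immunoproteasome probes given only by platform symbol, psmb8b, psmb9a and a pair of psmb9b, lay between -0.41 and 0.19 and none passed, against 0.93 for proteasome subunit beta type-9 precursor, listed for large Dec. fish.

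**Figure D2:**
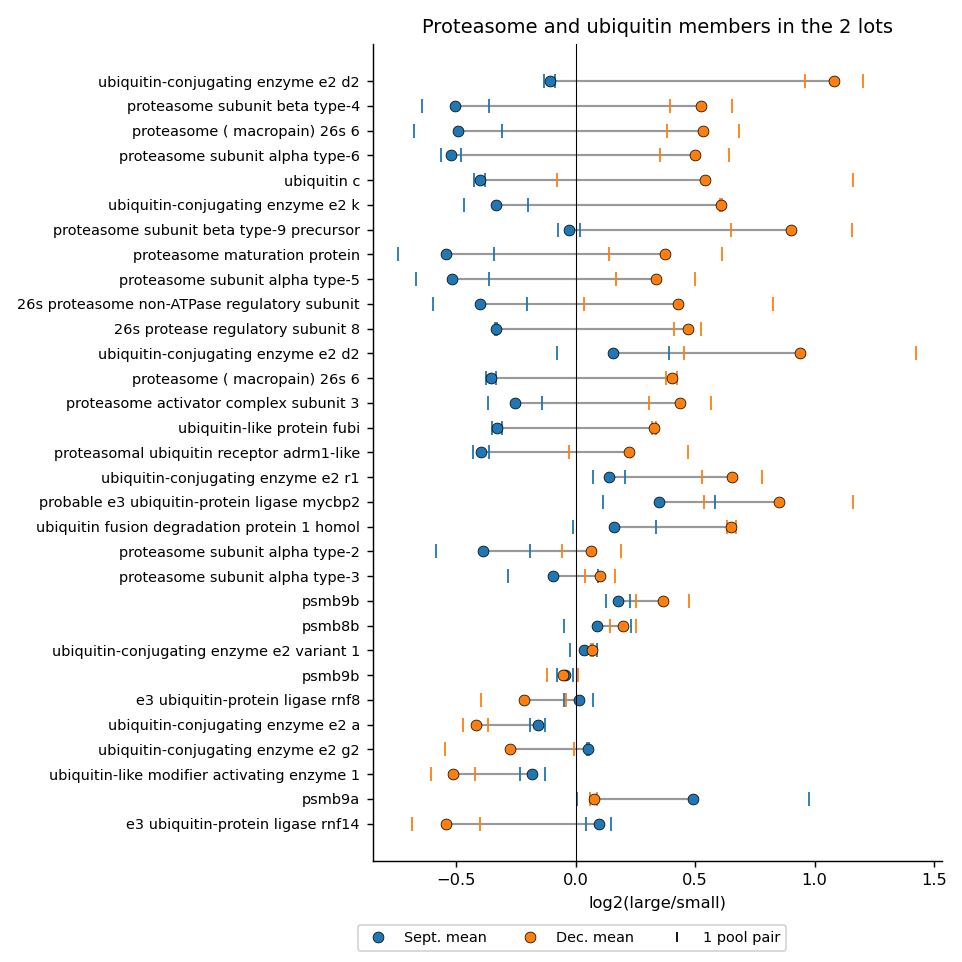
Mean log2(large/small) on the x axis for each of the 31 proteasome and ubiquitin probes (y axis), in the Sept. lot (blue) and the Dec. lot (orange), with vertical ticks for the single pool pairs. For 17 probes the Sept. mean lies left of 0 and the Dec. mean right of 0.

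Lysosomal transcripts separated into groups of opposite direction. Of 14 probes 6 were above 0 and 8 below (median -0.33, and -0.14 without Sept. pool pair 1). Of these, 4 lay without overlap upward and 2 downward, beside 1.45% and 1.24% of all probes. The study had listed 10 of the 14 for Dec. The upward ones included cathepsins d, b and l, proteases of the lysosome. Cathepsin m precursor (A_05_P251889) was not among them, with a difference of 3.06 without Dec. pool pair 1 and -0.56 without Dec. pool pair 2. Cathepsin d (A_05_P251434) was -0.15, 0.74, -0.90 and -0.33 in Sept. and 1.28, 0.91, 1.699 and 1.41 in Dec., a difference of 1.48 ± 0.36 (limma adjusted p = 0.483). The Sept. arrays disagreed in sign, while the Dec. arrays were all near or above 1. Cathepsin b precursor (0.96) and cathepsin l (0.82) were near 0 in Sept. and also did not overlap. Lysosome membrane protein 2-like had the highest value (1.64) and did not overlap, but did not pass the study's threshold, and its Dec. pool pairs lay far apart.

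The downward ones past the study's threshold were enzymes of glycan breakdown, legumain and lysosome-associated membrane glycoprotein 2 precursor (-0.50). Alpha-l-iduronidase precursor (A_05_P457567), which trims glycosaminoglycans, was 0.51, 0.46, 0.57 and 0.59 in Sept. and 0.18, -0.34, -0.29 and -0.51 in Dec. The Sept. arrays agreed closely and every Dec. array was lower, with a difference of -0.77 ± 0.15. Legumain (A_05_P275684), a protease, differed by -0.50 and beta-glucuronidase precursor by -0.43. Beta-mannosidase (-0.45) and beta-hexosaminidase subunit alpha precursor (-0.36) did not pass the study's threshold.

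Chaperone transcripts had a median difference of 0.37 (0.17 without Dec. pool pair 1), with 10 of 16 probes above 0, 6 past the study's threshold upward and 2 downward. The 3 probes of heat shock protein 90, a chaperone of kinases and receptors that also helps fold myosin, were at 1.26, 1.32 and 1.39. On A_05_P249734 the values were -0.98, 0.51, -0.39 and 0.48 in Sept. and 1.095, 0.43, 1.31 and 2.35 in Dec., and 1 low Dec. array kept the groups overlapping. Subunits of the chaperonin ring that folds actin and tubulin were also higher: chaperonin containing subunit 6a (zeta 1) at 0.93 and t-complex protein 1 subunits gamma (A_05_P370762, 0.68) and beta (0.53). The probe listed as subunit epsilon (A_05_P249199) went the other way (-0.68), and the platform annotation gives it the symbol gapdh, so its identity is unsettled. The probes named 60 kda heat shock mitochondrial were at -0.66 and -0.58 and did not pass.

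Early response genes, which cells switch on within a short time of a stimulus, had a median difference of 0.80, which was 0.34 on the arrays with large fish in Alexa 647 alone and 0.12 with those arrays turned. Of 19 probes 15 were above 0, 11 passed the study's threshold, all upward, and 7 did not overlap upward, against 1 downward. The list's median was -0.19, -0.09, 0.03 and -0.23 on the Sept. arrays and 1.11, 0.20, 0.52 and 0.09 on the Dec. arrays, all above the Sept. arrays. Of these probes 12 were listed for Dec., 4 for Sept. and 3 on neither list, and the latter were all above 0 with a median of 0.19.

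Growth arrest and dna-damage- beta (A_05_P409552), a stress-induced regulator of MAP kinase signalling, was -0.48, -0.09, 0.34 and -1.19 on the Sept. arrays and 1.66, 0.82, 1.69 and 1.86 on the Dec. arrays. The Dec. arrays were uniformly high and the Sept. arrays scattered on both sides of 0. The difference was 1.86 ± 0.21 (95% interval 1.29 to 2.44, limma adjusted p = 0.483), and leaving out 1 pool pair at a time moved it between 1.596 and 2.13. With the Alexa 647 arrays turned, it was -0.12. Butyrate response factor 1 (A_05_P376337), which marks AU-rich mRNAs for decay, was -0.19, 0.22, 0.44 and 0.21 in Sept. and 2.198, 0.85, 2.17 and 2.11 in Dec. and differed by 1.66 ± 0.26. It was low on all Sept. arrays, and the lowest Dec. array still lay above them.

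Transcription factor jun-b, a component of AP-1, differed by 1.14 on A_05_P410847, without overlap, and by 2.01 on A_05_P266894, where the arrays overlapped. Kruppel-like factor 2 (A_05_P414782), a transcription factor, was -0.13, -1.54, -0.19 and 0.04 in Sept. and 1.77, 0.93, 0.48 and 0.80 in Dec., and differed by 1.45 ± 0.37. A strongly negative Sept. array pulled the Sept. mean down, but the other 3 were also below the Dec. arrays. Its sign turned with the Alexa 647 arrays turned (-0.16). Its second probe (A_05_P409818), on no list, gave 0.68. The mean was negative in Sept. and positive in Dec. for 10 of the 19 probes. Among these were dual specificity phosphatase 1 (1.07), which switches off MAP kinases, nf-kappa-b inhibitor alpha (0.97) and ccaat enhancer-binding protein delta (0.80). The last of these did not pass the study's threshold. Dual specificity phosphatase 6 was -0.29 and did not pass.

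**Figure D3:**
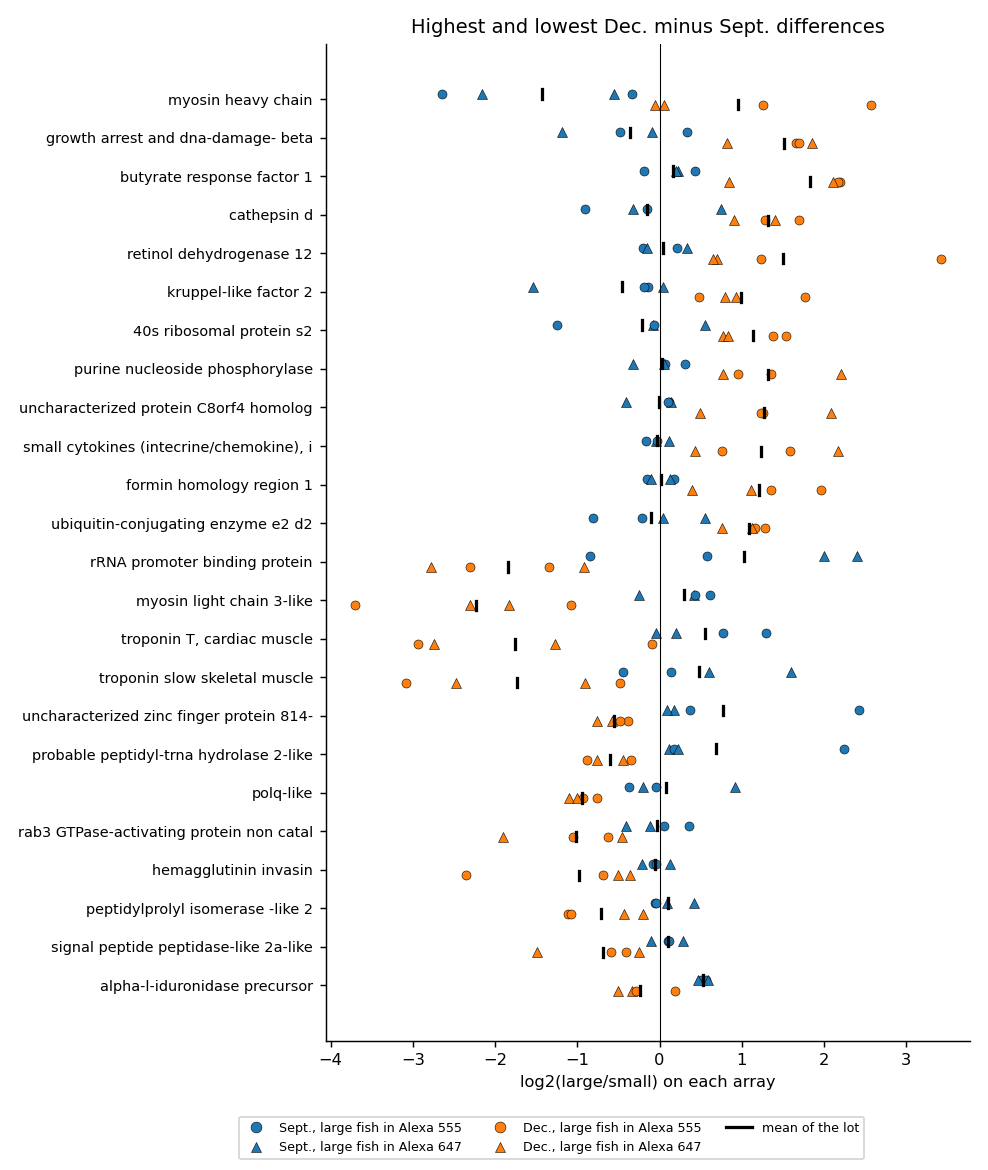
Values of log2(large/small) on each of the 8 arrays (x axis) for the 24 named genes with the highest and lowest differences among those whose lots did not overlap (y axis). Blue stands for Sept., orange for Dec., circles and triangles for the dye of the large fish, and black bars for the mean of the lot. For every gene the 4 orange symbols lie on 1 side of the 4 blue ones.

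Plasma protein transcripts, made mainly in liver, and hemoglobin transcripts had high positive medians that rested on 1 pool pair. For plasma proteins 17 of 20 probes were above 0 with a median of 0.56, but only 1 passed the study's threshold upward and 1 downward. The list's median was 0.58 and 1.02 in the Sept. pool pairs, 0.21 in Dec. pool pair 1 and 2.75 in Dec. pool pair 2. Without Dec. pool pair 2 the median difference became -0.58, and without Dec. pool pair 1 it was 1.61. Complement component c9 (A_05_P485237), a pore-forming protein of the complement cascade, illustrates this with 0.44, 0.12, 1.32 and 1.33 in Sept. and 1.54, -1.08, 3.68 and 4.64 in Dec. Only the last pool pair was far above the others (1.39 ± 1.39, 95% interval -2.35 to 5.12). The upward pass was coagulation factor vii (1.07), listed for large Dec. fish.

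Red blood cell transcripts had the same pattern, with 12 of 15 probes above 0, a median of 0.84 and 0 past the study's threshold upward. Their medians were 0.51 and 0.63 in the Sept. pool pairs and 0.06 and 2.97 in the Dec. pool pairs, and without Dec. pool pair 2 the median difference was -0.38. Hemoglobin subunit alpha on A_05_P480657 was -0.24, 1.26, 0.37 and 1.83 in Sept. and 0.82, 0.36, 2.83 and 4.03 in Dec. (1.205 ± 0.99), so that the arrays of pool pair 2 were far above all others. A hemoglobin subunit beta probe (A_05_P395622) passed the study's threshold downward instead (-0.60), and an alpha probe (A_05_P441202, -0.55) and an hba probe (A_05_P332705, -0.53) were also below 0 without passing. Plasma and hemoglobin values were thus both high on the arrays of Dec. pool pair 2, and their part in other differences was not tested.

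Of 6 skin probes 4 were above and 2 below 0 (median 0.46, and 0.10 without Dec. pool pair 1). Keratin 18 (1.02) and Ictacalcin (0.67), an epithelial calcium-binding protein, passed the study's threshold upward, and keratin 19 (0.45) and type i keratin e7 (0.48) did not. Claudin 7 (-0.31) and claudin-4 (-0.02), of epithelial cell junctions, were below 0 and did not pass. Ictacalcin was -0.44, 1.43, -0.17 and 2.04 in Sept. and 2.15, 0.86, 1.25 and 1.29 in Dec., with a wide gap between the arrays of each Sept. swap. On arrays with large fish in Alexa 647 alone, its difference was -0.66.

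Connective tissue transcripts had a median difference of 0.19 (0.08 without Sept. pool pair 1), with 3 of 16 probes past the study's threshold upward and 1 downward. The chains of the main fibre-forming collagen did not pass. Collagen type i alpha 1 differed by 0.22 (95% interval -0.51 to 0.95) and alpha 2 by 0.17 (95% interval -0.33 to 0.67), each positive in both lots on average. Matrix metalloproteinase 2, which degrades basement membrane collagen, passed on both its probes, each at 0.52, as did collagen alpha-1 chain-like (0.73). Laminin subunit alpha-3 isoform 3, a basement membrane chain, was lower (-0.75) and did not overlap. The largest values, for extracellular matrix protein 1 (1.59), thrombospondin 2 (1.101) and fibronectin precursor (1.04), did not pass. Extracellular matrix protein 1 and fibronectin, which is also a plasma protein, were high on the arrays of Dec. pool pair 2, as the plasma list was.

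Fat cell and lipid transcripts had a positive difference for 19 of 29 probes (median 0.41), and 10 passed the study's threshold upward against 2 downward. Nadp-dependent malic enzyme (A_05_P419472), a source of NADPH for fatty acid synthesis, was 0.51, -0.19, 0.53 and -0.90 in Sept. and 1.71, 0.32, 1.36 and 0.84 in Dec. and differed by 1.07 ± 0.16. The Sept. arrays lay on both sides of 0, and 3 Dec. arrays were above them and 1 within their range. Fatty acid-binding heart, a carrier of fatty acids in muscle, was higher on all 3 probes (0.64 to 1.04), lipoprotein lipase, which hydrolyses circulating triglycerides, by 0.98, and adipose differentiation-related protein, a coat of lipid droplets, by 1.001. Delta-6 fatty acyl desaturase, which makes long-chain polyunsaturated fatty acids, was 1.199 and did not pass. ATP citrate lyase, which feeds fatty acid synthesis, had a probe in each direction (0.83 on A_05_P411167 and -0.63 on A_05_P412117). The 12 members on no muscle list had a median of 0.19.

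Of 32 leukocyte probes 20 were above 0 (median 0.43), with 13 past the study's threshold upward and 5 downward. Without Dec. pool pair 2 the median was 0.17. The chemokine listed as small cytokines (intecrine/chemokine), interleukin-8 like (A_05_P412367), which attracts neutrophils, was -0.16, -0.05, -0.04 and 0.12 in Sept. and 1.59, 0.43, 0.76 and 2.17 in Dec. It was near 0 on every Sept. array and above them on every Dec. array, with a difference of 1.27 ± 0.19 (95% interval 0.75 to 1.79). The 3 probes of Ig mu chain C region membrane-bound form, the antigen receptor of B cells, were at 0.63 to 1.02. Beta-2-microglobulin precursor (1.01), of antigen presentation, and arachidonate 5-lipoxygenase-activating protein (0.91), of leukotriene synthesis, coactosin-like 1 (0.99) and leukocyte surface antigen cd53 (0.80) were also higher. Past the threshold downward were CD209 antigen-like protein D (-0.75), a lectin of antigen-presenting cells, leukotriene b4 receptor (-0.38), CD83 antigen (-0.53), matrix metalloproteinase 9 (-0.45) and cc chemokine (-0.44). The 3 probes of CD209 antigen-like protein D disagreed, from -0.75 to 0.37, with 1 above 0. The 11 leukocyte probes on no muscle list had a median of -0.02, with 5 above 0 and 0 past the study's threshold.

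Interferon-response probes showed no common direction (6 above and 8 below 0, median -0.14, and -0.05 without Sept. pool pair 2). Interferon-induced transmembrane protein, which blocks virus entry, was higher (1.08) and interferon-induced guanylate-binding protein 1 (A_05_P486782) lower (-0.68), each without overlap. Interferon inducible mx protein was -0.42 and did not pass, and mx1 and mx2, given by platform symbol, were 0.23 and -0.12.

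Myelin transcripts had negative medians in both lots. The list's median was -0.63 in Sept. and -0.51 in Dec., and the median difference was 0.25 (0.16 without Dec. pool pair 1) with 2 of 8 probes past the study's threshold, both upward. These were myelin basic protein on A_05_P472647 (0.70) and proteolipid protein 1b (0.45). The other myelin basic protein probes differed by 0.08 (95% interval -0.25 to 0.41) and 0.35 (95% interval -0.31 to 1.01), and myelin protein zero, the main protein of peripheral myelin, by -0.03 (95% interval -0.94 to 0.88).

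Growth axis and muscle regulatory genes had a median difference of 0.06, 10 of 19 probes being above 0, and the median was 0.00 when the arrays were brought to 1 spread. Past the study's threshold upward were growth factor receptor-bound protein 14 (1.13), an inhibitor of insulin receptor signalling, and myod1 (0.78), a muscle-determining transcription factor that the study had not listed. Insulin-like growth factor i receptor (A_05_P249834) was 0.18, 0.15, 0.20 and -0.48 in Sept. and -1.37, 0.03, -0.67 and -0.51 in Dec., a difference of -0.64 ± 0.15. It lay around 0 in Sept. and was negative on 3 of 4 Dec. arrays. Noggin, an inhibitor of bone morphogenetic proteins, was also lower (-0.60). Myostatin, printed as gdf-8, differed by 0.20 (95% interval -0.18 to 0.57), the growth hormone receptor ghr1 by 0.35 (95% interval -0.37 to 1.08) and pax7, a marker of muscle stem cells, by -0.31 (95% interval -0.85 to 0.22). The probe named myoblast determination protein 2 (-0.26) and that with the platform symbol myod2 (0.47) disagreed in sign, and neither passed.

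Probes named for ribosomal RNA or repeats mostly had negative differences (25 of 28, median -0.52, 13 past the study's threshold downward and 1 upward). The study had listed 23 of these probes for Dec. The lowest difference of the list was that of rRNA promoter binding protein on A_05_P425972 (-3.14 ± 0.63). On A_05_P393707, of the same name, the arrays were 0.57, 2.396, -0.84 and 2.000 in Sept. and -1.35, -0.91, -2.31 and -2.78 in Dec. All but 1 Sept. array were positive and all Dec. arrays negative, without overlap, and the difference was -2.87 ± 0.58. Both probes changed sign with the Alexa 647 arrays turned (0.63 and 1.18). All 9 probes of transposable element tcb1 transposase, an enzyme of mobile DNA, had negative differences, from -0.82 to -0.38.

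Of the remaining leading genes, those with higher Dec. effects were retinol dehydrogenase 12 (1.45), which oxidises retinol, purine nucleoside phosphorylase (1.29), of purine salvage, uncharacterized protein C8orf4 homolog (1.28) and formin homology region 1 (1.19). Retinol dehydrogenase 12 (A_05_P487192), on no muscle list, was -0.20, 0.33, 0.21 and -0.15 in Sept. and 3.42, 0.70, 1.23 and 0.65 in Dec. It lay around 0 on the Sept. arrays, and 1 Dec. array stood far above the rest. Those with lower Dec. effects were an uncharacterized zinc finger protein (A_05_P395527, -1.32), probable peptidyl-trna hydrolase 2-like (-1.299), polq-like (-1.02), rab3 GTPase-activating protein non catalytic subunit (-0.98), hemagglutinin invasin (-0.92), peptidylprolyl isomerase -like 2 (-0.81) and signal peptide peptidase-like 2a-like (-0.79). Polq-like (A_05_P268299), a name taken from a DNA polymerase, was -0.37, -0.20, -0.05 and 0.92 in Sept. and -0.93, -1.100, -0.76 and -1.004 in Dec. Its Dec. arrays agreed closely, whereas 1 Sept. array was high.

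Opposite signs on all 4 arrays of each lot were seen for 10 named probes, 6 of them negative in Sept. and positive in Dec. and 4 the reverse. Over all 38488 probes these patterns were found for 98 probes (0.255%) and 113 probes (0.294%). Nuclease harbi1-like (A_05_P419577) was -0.999, -0.78, -0.21 and -0.90 in Sept. and 0.27, 0.22, 0.42 and 0.55 in Dec., a difference of 1.09 ± 0.18. This was the highest of the 3 probes of this name, which had a median difference of 0.11 and a lowest of 0.11. NEFA-interacting nuclear protein NIP30 (A_05_P285242) was -0.51, -0.08, -0.29 and -0.58 in Sept. and 0.98, 0.13, 0.63 and 0.81 in Dec. and differed by 1.001 ± 0.13. On both of these probes every Sept. array was negative. Probable peptidyl-trna hydrolase 2-like (A_05_P305592), which frees tRNA from stalled peptides, showed the reverse with 2.24, 0.12, 0.18 and 0.23 in Sept. and -0.35, -0.44, -0.88 and -0.76 in Dec., although 1 Sept. array supplied most of its Sept. mean.

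Size effects of 1 sign on all 8 arrays were found for 208 probes in the positive (0.54%) and 187 in the negative direction (0.486%), and 30 named probes of this kind had a mean effect of at least 1.5-fold. Lactate dehydrogenase-a (A_05_P469692), which regenerates NAD+ in anaerobic glycolysis, was 0.43, 0.69, 1.01 and 0.64 in Sept. and 0.997, 0.64, 0.70 and 0.25 in Dec. The ranges overlapped, and the difference was -0.05 with a 95% interval of -0.53 to 0.44. Ap-1 complex subunit gamma-1 (A_05_P427757), of clathrin coats, was 0.39, 1.36, 0.30 and 0.96 in Sept. and 0.97, 1.05, 0.87 and 1.22 in Dec., a difference of 0.28 (95% interval -0.08 to 0.64). HEAT repeat-containing protein 3 (0.00, 95% interval -0.76 to 0.76), glutathione peroxidase (0.05, -0.62 to 0.73), an antioxidant enzyme, and retinol binding protein cellular (0.27, -0.25 to 0.79) also had small differences, and intervals of this width do not show that the lots were equal. The median 95% interval reached 0.38 to either side of a difference.

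Max protein (A_05_P478412), named after the partner of the Myc transcription factor, was 2.06, 2.41, 2.61 and 2.87 in Sept. and 2.41, 0.92, 1.65 and 0.71 in Dec. It was positive on all arrays, and 3 of 4 Dec. arrays lay below every Sept. array. The difference was -1.06 ± 0.26 (95% interval -1.76 to -0.37, limma adjusted p = 0.483), and its sign turned with the Alexa 647 arrays turned (0.76). The platform annotation gives this probe the same gene symbol as the probe named for DDIT4-like protein, so its identity is also unsettled.

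**Figure D4:**
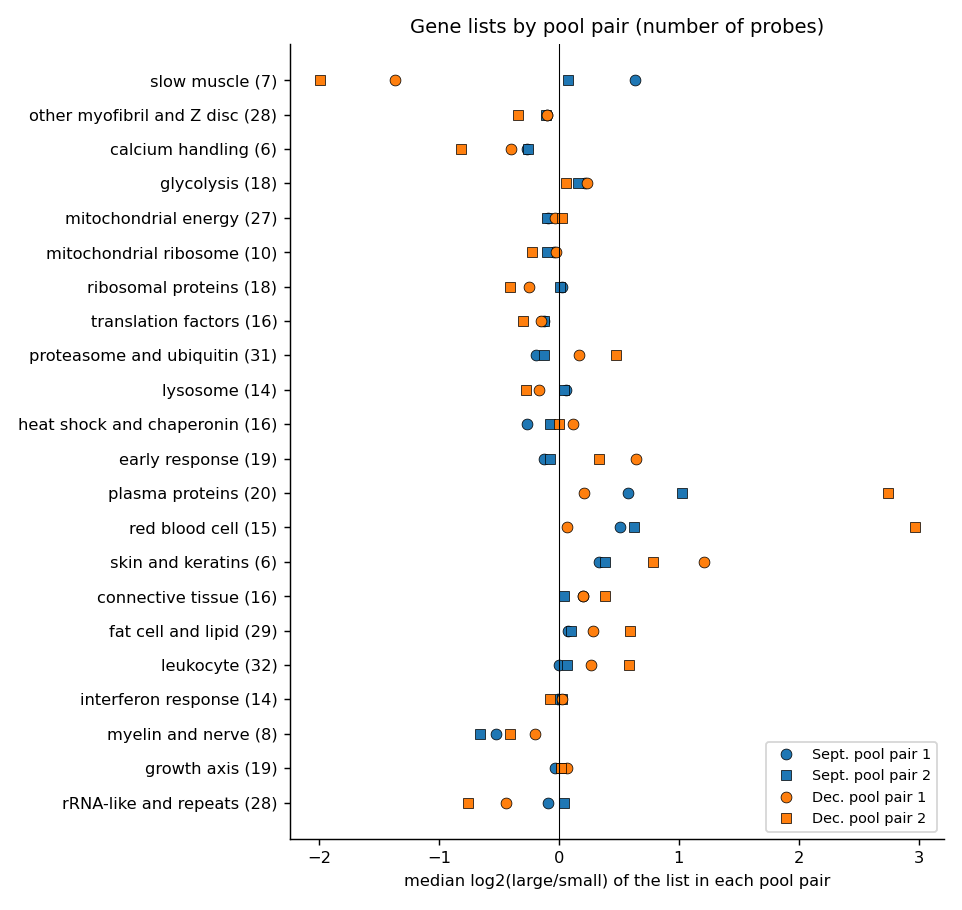
Median log2(large/small) of each gene list (x axis) in the 2 Sept. pool pairs (blue) and the 2 Dec. pool pairs (orange), with the number of probes of each list in brackets on the y axis. The Dec. pool pairs lie apart from the Sept. pool pairs for slow muscle and early response transcripts. They also do so for other lists, among them proteasome, skin, ribosomal RNA, lysosome, leukocyte and fat cell transcripts. The plasma protein medians of the Dec. pool pairs are 0.21 and 2.75.

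**Figure D5:**
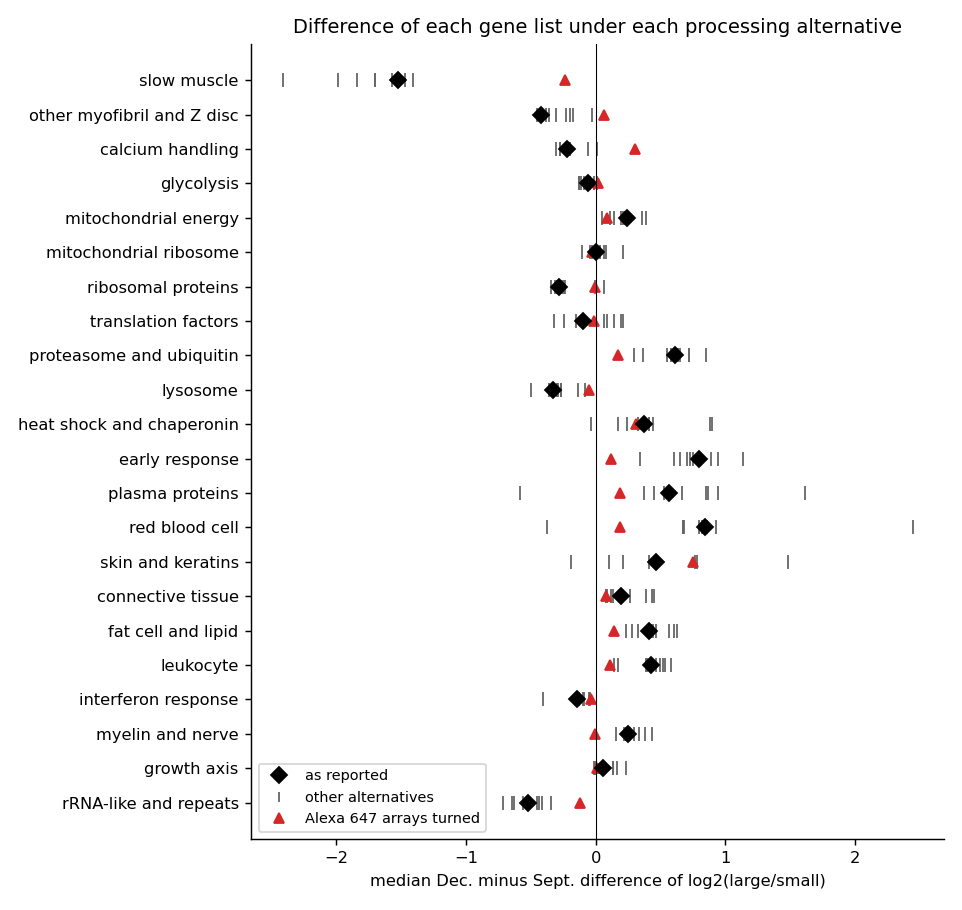
Median Dec. minus Sept. difference of each gene list (x axis) as reported (black), under the other processing alternatives (grey ticks) and with the arrays of large fish in Alexa 647 turned (red triangles). The slow muscle median stays below 0 and the proteasome and early response medians stay above 0 under all 19 alternatives. Those that changed only the test or the unit or terms of the fit could not move a median.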

How the data were processed

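White muscle mRNA pools of large and small rainbow trout were hybridised together on 8 two-colour arrays, 4 of each lot. The authors scanned the arrays, removed weak spots, normalised by lowess and deposited 1 log2 ratio per probe and array. This ratio was read as small over large and negated here to large over small. The deposited log2 values carry no signal level, so the depth and background behind a value are unknown and the number of arrays limits the precision. Control rows (60) were left out, as were 5115 probes without a value on all 8 arrays. The arrays of each dye swap were averaged to 1 pool pair, and limma 3.58.1 in R 4.3.3 (lmFit, eBayes) tested the contrast of Dec. minus Sept. on 4 pool pairs, with Benjamini-Hochberg adjustment over 38488 probes. The fit was tested on simulated data in which 200 probes were changed. Names came from the study's supplementary lists and the platform annotation, joined with pandas 2.3.3. Each pool of a lot held fish of the same families, so p-values measure the spread between these pools only.

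The study's threshold was an unadjusted p up to 0.05 with at least 1.2-fold. The study applied it to large against small fish within a lot, and here it was applied to the difference between the lots. The comparison, the gene lists and the rule for named genes were chosen with earlier results of these data known. Named were the 12 highest and 12 lowest differences among probes with an unadjusted p up to 0.05 whose lots did not overlap, 6 probes with opposite signs on all arrays, up to 4 members with the largest differences of each list, 6 probes alike in both lots, the genes of the study's qPCR with the parvalbumins, and 4 unnamed probes. Other members were named after their values were seen. Alternatives changed the array scaling, the spread, the unit of the fit, the dye orientation, the filter, the test and the pool pairs used.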

Additional observations from a re-analysis of the deposited data

Results flagged for a closer look

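On 11 of the 124 groups of 4 arrays looked at, 1 array stood far from the other 3 by Dixon's test. Chance alone does this for about 1 group in 20 where the values are independent. Here the arrays of a dye swap share their pools, and many genes were picked on how their arrays lay. That rate therefore cannot be set against the 11 groups. Among the gene lists, the calcium handling median was -1.18 on the Dec. pool pair 2 array with large fish in Alexa 555, against -0.41 to -0.39 on the other Dec. arrays. The list of ribosomal RNA and repeats had a median of -0.22 on the Sept. pool pair 1 array with large fish in Alexa 555, and -0.02 to 0.01 on the others.

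Single Sept. arrays stood apart for kruppel-like factor 2 (A_05_P414782, -1.54), uncharacterized protein C8orf4 homolog (A_05_P262634, -0.40), an uncharacterized zinc finger protein (A_05_P395527, 2.43), probable peptidyl-trna hydrolase 2-like (A_05_P305592, 2.24) and HEAT repeat-containing protein 3 (A_05_P465312, -1.66). Single Dec. arrays stood apart for butyrate response factor 1 (A_05_P376337, 0.85), hemagglutinin invasin (A_05_P451112, -2.35), hydroxypyruvate isomerise (A_05_P265969, 0.038) and glyceraldehyde-3-phosphate dehydrogenase (A_05_P463477, 1.56). In the last, the other Dec. arrays lay between -0.25 and -0.03, so that 1 array gave the Dec. mean its sign.

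Every array of one lot went one way and every array of the other lot the opposite way for 6 of the named genes. These were probable peptidyl-trna hydrolase 2-like (a difference of -1.30), the zinc finger protein of A_05_P395527 (-1.32), atp synthase subunit mitochondrial precursor (0.94), nuclease harbi1-like (1.09), NEFA-interacting nuclear protein NIP30 (1.00) and hydroxypyruvate isomerise (1.10). The limma test of the difference did not pass after adjustment for any of them, with adjusted p between 0.48 and 0.50.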

How the results depend on the processing

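No alternative gave a probe with an adjusted p under 0.05, the lowest adjusted p being 0.0603 without Dec. replicate 1, while 1353 to 5516 probes had an unadjusted p up to 0.05. The count past the study's threshold upward, 1877, became 1234 with the arrays brought to 1 spread, 820 on the arrays with large fish in Alexa 647 alone and 1151 with those arrays turned. By a t-test of the Dec. against the Sept. size effects it was 844 on pool pairs and 764 on arrays. Without 1 pool pair it ranged from 1095 to 2812. The downward count, 1606, became 945 with 1 spread, 1055 with a dye term and no block, 3021 on the Alexa 555 arrays alone, 533 on the Alexa 647 arrays alone, 661 and 534 by the t-tests, and ranged from 942 to 2704 without 1 pool pair. The higher calls thus outnumbered the lower ones as reported, but not on the Alexa 555 arrays (2305 against 3021) or with the Alexa 647 arrays turned (1151 against 2076). Nor did they without Sept. pool pair 1 (1300 against 1464). With the replicate number as a block, 1954 probes were higher and 1625 lower, and 2730 of the 3483 were kept. Pools of the same number did not deviate together (r = 0.07). The methods give both lots the same 2 pairings of size ranks, but the labels do not say which number stands for which pairing. The ratio of spreads, 1.33, ranged from 1.29 to 1.36 without 1 pool pair and was 1.58 by the SD.

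Of the 22 lists, 10 kept the sign of their median under every alternative fit, although those that changed only the test or the unit or terms of the fit could not move a median. With the Alexa 647 arrays turned, the medians became 0.0674 for other myofibril, 0.30 for calcium handling and -0.0023 for myelin. On the Alexa 555 arrays alone, calcium handling became 0.0106 and translation factors 0.0644. On the Alexa 647 arrays alone, translation factors became 0.0890, heat shock -0.0336 and skin -0.19. Ribosomal proteins became 0.0650 and translation factors 0.20 without the Dec. pool pair 1 array with large fish in Alexa 647. Without 1 pool pair, translation factors ranged from -0.32 to 0.21, growth axis from -0.0121 to 0.13, plasma proteins from -0.58 to 1.61 red blood cell from -0.38 to 2.45, glycolysis from -0.13 to 0.01 and mitochondrial ribosome from -0.10 to 0.08. Medians that moved by over 1.5 times without turning were those without Sept. pool pair 1 of other myofibril (-0.18), mitochondrial energy (0.11), lysosome (-0.14) and connective tissue (0.08), without Sept. pool pair 2 of plasma proteins (0.95) and interferon response (-0.05), without Dec. pool pair 1 of heat shock (0.17), skin (0.10), calcium handling (-0.06) and myelin (0.16), and without Dec. pool pair 2 of proteasome (0.37), leukocyte (0.17), other myofibril (-0.23), connective tissue (0.12), skin (0.77) and myelin (0.38). With the Alexa 647 arrays turned, slow muscle was -0.23, proteasome 0.17, early response 0.12, fat cell 0.14, leukocyte 0.11 and ribosomal RNA -0.12. Growth axis was -0.0028 with 1 spread. The only member on no muscle list had the other sign for translation factors (0.0462, 1 probe) and for skin (-0.0249, 1 probe). Members on no muscle list had medians of the other sign for connective tissue (-0.13, 4 probes), leukocyte (-0.0154, 11 probes) and interferon response (0.12, 7 probes).

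The changes of sign given here are those of probes named by the rule with an unadjusted p up to 0.05. Of the other 45 such probes, 32 changed sign under at least 1 alternative. With the Alexa 647 arrays turned, the difference changed sign for growth arrest and dna-damage- beta (-0.12), kruppel-like factor 2 (-0.16), purine nucleoside phosphorylase (-0.33), C8orf4 homolog (-0.14), rRNA promoter binding protein (1.18 and 0.63), troponin slow skeletal muscle (0.58), polq-like (0.39), signal peptide peptidase-like 2a-like (0.17), alpha-l-iduronidase precursor (0.18), nuclease harbi1-like (-0.14), hydroxypyruvate isomerise (-0.0033), sarcalumenin precursor (0.19), ADP/ATP translocase 2 (0.76), ribosomal protein l13 (0.64), cathepsin b precursor (-0.17), nadp-dependent malic enzyme (-0.0554), interferon-induced transmembrane protein (-0.21), interferon-induced guanylate-binding protein 1 (0.11), myelin basic protein (-0.11), max protein (0.76) and the unnamed A_05_P438917 (-0.30), A_05_P494647 (0.73) and A_05_P298677 (1.88, and 0.55 on the Alexa 555 arrays alone). Ictacalcin was -0.66 on the Alexa 647 arrays alone. Past the study's threshold, 22 of the probes named by the rule moved by over 1.5 times without 1 pool pair. Besides those in the report these were retinol dehydrogenase 12 (0.89), hemagglutinin invasin (-0.47), jun-b on A_05_P266894 (1.04), myod1 (0.47) and GAPDH on A_05_P463477 (0.44) without Dec. pool pair 1, purine nucleoside phosphorylase (0.83), rab3 GTPase-activating protein non catalytic subunit (-0.51), signal peptide peptidase-like 2a-like (-0.52), sarcalumenin precursor (-0.26), elongation factor 1 alpha 1 on A_05_P362822 (0.86), heat shock protein 90 on A_05_P249734 (0.86), dnaj homolog subfamily b member 6 (-0.37), fatty acid-binding heart on A_05_P263974 (0.53), beta-2-microglobulin precursor (0.62) and a tcb1 transposase probe, A_05_P479967, (-0.54) without Dec. pool pair 2, the ribosomal protein of A_05_P366007 (0.89), A_05_P395527 (-0.78) and probable peptidyl-trna hydrolase 2-like (-0.81) without Sept. pool pair 1, and polq-like (-0.67) and myelin basic protein on A_05_P472647 (0.36) without Sept. pool pair 2. The cause was not tested. A median interval of 0.38 to either side limits what 2 pool pairs per lot can show.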

Other observations

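Of the probes without a name, the 2 with the lowest p upward were A_05_P261534, at -0.42, 0.15, -0.01 and 0.11 on the Sept. arrays and 2.74, 0.00, 2.06 and 0.72 on the Dec. arrays (1.42 ± 0.12), and A_05_P438917, at 0.14, 0.08, 0.12 and -0.22 and 0.07, 3.16, 2.61 and 0.30 (1.503 ± 0.13). The 2 downward were A_05_P494647, at 0.83, 0.19, 0.78 and 0.28 and 0.17, -1.89, 0.12 and -1.86 (-1.38 ± 0.10), and A_05_P298677, at -0.52, 0.11, -0.14 and -0.61 and 0.18, -3.42, 0.26 and -3.51 (-1.33 ± 0.12). In all 4, the arrays of the same Dec. dye swap lay far apart while the pool pair means agreed, and the SE of the difference, which uses the means, does not hold the gap between swapped arrays.

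Several names were carried by 3 or more probes, which did not always agree. The probes of heat shock protein 90 (1.26 to 1.39), eukaryotic translation elongation factor 1 alpha 1 (1.19 to 1.60), fatty acid-binding heart (0.64 to 1.04), Ig mu chain C region membrane-bound form (0.63 to 1.02) and voltage-dependent anion-selective channel protein 2 (0.32 to 0.92) had differences of 1 sign. Those of glutamate dehydrogenase (-0.34 to 1.24), lymphatic vessel endothelial hyaluronic acid receptor 1 precursor (-1.85 to 0.50), glutamine synthetase (-0.59 to 0.63) and 7-dehydrocholesterol reductase (-0.51 to 0.50) had both. Whether the probes of a name match 1 gene or several is not given in the sources used here. These probes were chosen after their values were seen.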
